A study of Mus musculus with 8 samples.

Results

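The 36 genes described here encode proteins of homologous recombination, the Fanconi pathway and the DNA damage checkpoint, with 4 genes of neighbouring repair pathways. They were chosen by name from lists of known repair genes, with earlier results of these data known. Each was matched by its mouse symbol to 1 of the 56980 Ensembl gene IDs of the count table. All 36 passed the filter on low counts, among 18905 genes tested, and their counts per library ran from 243 to 8494. The label held for what most of the genes encode. Msh6, Ung, Neil3 and Polq act mainly in mismatch repair, base excision repair or polymerase theta end joining. The label also does not name the checkpoint, to which 6 of the genes belong (Atm, Atr, Atrip, Chek1, Chek2 and Topbp1).

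The cells were oligodendrocyte progenitors, the dividing precursors of myelinating cells, taken from the cortex of wild-type C57BL/6 mouse pups at postnatal day 6 to 8 and captured on dishes coated with an antibody to the PDGF receptor alpha, after lectin dishes that hold back microglia and endothelial cells. Pups of either sex were used, and how many were pooled is not given in the sources used here. The cells were grown with 10 ng/mL PDGF-AA, a mitogen for these cells, and 20 ng/mL bFGF, which was washed out before the experiment. High glucose cultures (HG, n = 4 libraries) stayed at 25 mM glucose, and low glucose cultures (LG, n = 4) went down to 12.5, 5 and 2.5 mM on days 1, 2 and 3 and were refreshed at 2.5 mM on day 4. PDGF-AA stayed in both groups to the end on day 5, and by the labels the groups share genotype, strain and age and differ in glucose alone.

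Total counts were 50864130 to 61915909 per HG library and 53869166 to 65733928 per LG library. Libraries are numbered 1 to 4 within a group. Numbers 1 and 2 carry a single preparation code in both groups, so there were 4 pairs from 3 preparations, and n counts libraries. The first principal component (47.1% of the variance) parted numbers 1 and 2 from numbers 3 and 4. LG was compared with HG across all genes by edgeR's quasi-likelihood test with the replicate number as a block, and calls are Benjamini-Hochberg adjusted p-values under 0.05.

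Homologous recombination copies lost sequence from the sister chromatid after a break in both DNA strands. The MRE11 complex and nucleases trim the ends, BRCA1 and BRCA2 prepare the trimmed strand for the search for matching sequence, and helicases and nucleases undo the joined molecules. The Fanconi pathway marks crosslinks between the strands through a ubiquitin ligase and passes them on to nucleases and recombination, while the ATM and ATR kinases halt the cell cycle. Many of these genes are transcribed mainly in cells that are about to copy or are copying their DNA, and progenitors in PDGF-AA are a dividing population.

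Of the 36 genes, 5 were lower in LG with the replicate block and 0 were higher, against 0.307% of all genes tested that were called lower and 0.111% called higher. The genes that fell were Brca1, Brca2, Rad50, Exo1 and Topbp1. The log2 fold change was below 0 for 33 genes and above 0 for 3, with a median of -0.26 against 0.00 over all genes tested, where 49.6% were below 0. LG was the lower library in 4 of 4 pairs for 23 of the 36 genes, against 11.0% of all genes, and an unadjusted p under 0.05 with a negative sign was found for 23, against 7.43% of all genes. Without the block no gene of the table was called, the adjusted p was 0.9999 for each of the 36, and 10 of them had an unadjusted p under 0.05 with a negative sign, against 2.68% of all genes. These counts are descriptions, since the genes were chosen with earlier results of these data known. In bulk RNA, fewer dividing cells and less repair RNA per cell cannot be told apart.

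**Figure D1:**
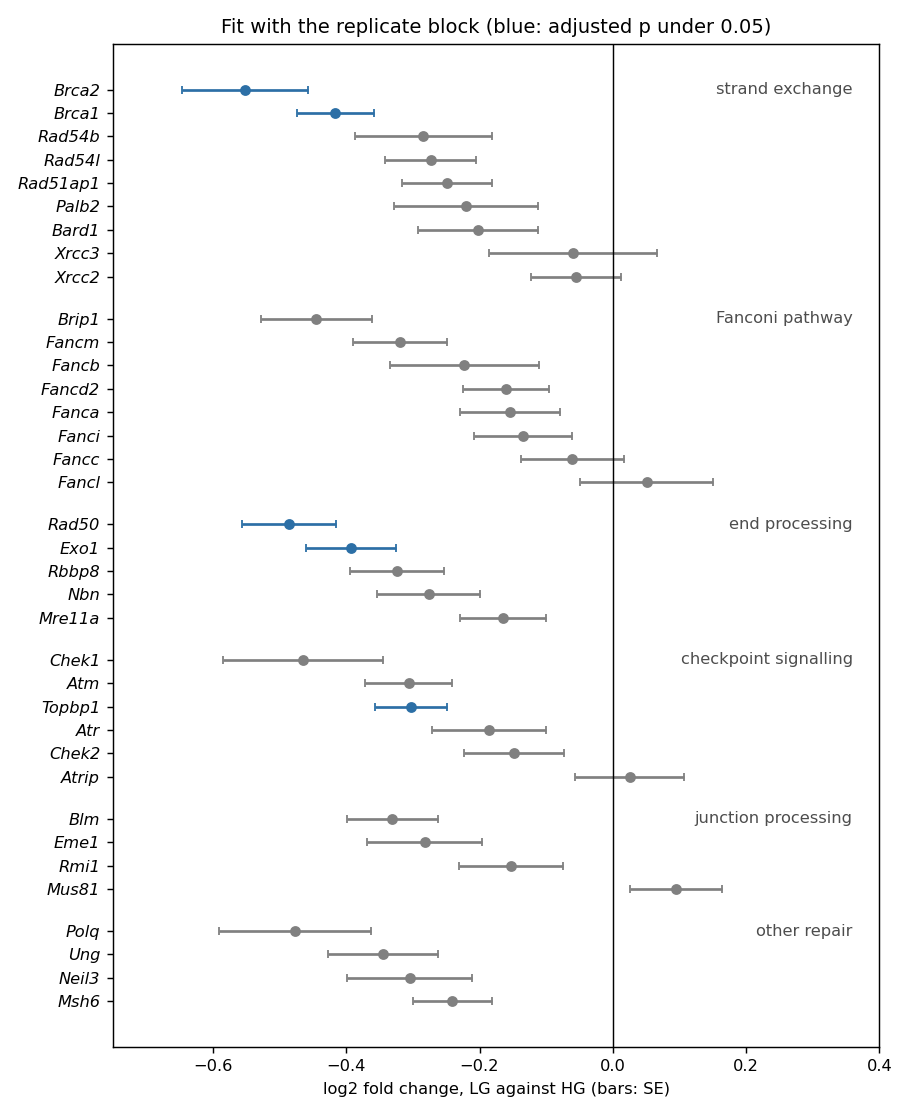
Log2 fold change of LG against HG for each of the 36 genes, grouped by role, from the edgeR fit with the replicate block. Points are estimates and bars are standard errors. Blue points are the 5 genes with an adjusted p under 0.05, and 33 of the 36 points lie left of the line at 0.

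The strand exchange group had 9 genes, all below 0, with a median log2 fold change of -0.25, and 2 of them were called. Brca1 encodes a ubiquitin ligase subunit that promotes end trimming and strand exchange. It was measured at 61.5, 54.0, 39.5 and 38.6 CPM (counts scaled to the normalised library size) in HG replicates 1 to 4, and at 45.4, 40.8, 29.5 and 29.2 CPM in LG replicates 1 to 4. Each LG library lay below its HG partner, while the groups overlapped because numbers 1 and 2 were higher than numbers 3 and 4 in both. Brca1 fell by 0.42 in log2 units (SE 0.0579, edgeR adjusted p = 0.0346), from 48.4 ± 11.2 to 36.2 ± 8.17 CPM (SD, n = 4).

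Brca2, whose product acts on the trimmed single-stranded DNA before strand exchange, had the most negative estimate of the 36. Its values were 27.9, 23.0, 17.9 and 14.8 CPM in HG replicates 1 to 4 and 16.0, 16.4, 11.2 and 12.5 CPM in the LG partners. All 4 pairs were lower in LG, and the smallest step was in pair 4. Brca2 fell by 0.55 (SE 0.0942, edgeR adjusted p = 0.0418). Palb2, which joins the BRCA1 and BRCA2 proteins, was at 6.98, 8.00, 5.43 and 5.97 CPM in HG and 4.97, 7.51, 4.56 and 5.73 CPM in LG. Its log2 fold change of -0.22 (SE 0.108) did not pass (edgeR adjusted p = 0.405).

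The other strand exchange genes had smaller estimates and none passed. Bard1, the ligase partner of Brca1, was at -0.20. Rad51ap1, Rad54l and Rad54b, whose products help the strand invade its target, were at -0.25, -0.27 and -0.28 (edgeR adjusted p from 0.122 to 0.264). Xrcc2 and Xrcc3, which also act in strand exchange, lay near 0, at -0.06 each. In Xrcc3 the LG libraries ran from 5.52 to 9.99 CPM, around the HG range of 6.87 to 8.08 CPM. Rad54b shares exons with Fsbp on its own strand, so its counts are uncertain.

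Promoter sequences are shown for the called genes Brca1, Brca2 and Topbp1 and for Bard1 and Chek2, which have an E2F site upstream and were not called. The RefSeq promoter table (GRCm38.p6, 250 bases before to 50 after each start) held 29 of the 36 genes, but not the called genes Rad50 and Exo1. Some genes have several starts, and a gene was counted where any of its starts had the motif. The E2F site, bound by the factors that turn on genes for DNA copying, was searched on both strands as TTTCCCGC, TTTCGCGC, TTTGCCGC or TTTGGCGC. It was found in 6 of these 29 genes (20.7%), against 2.61% of all 27025 genes of that table and 4.45% of the 11656 genes in it that were also tested. The CCAAT box, which binds NF-Y, was found in 17 of the 29 (58.6%), against 41.1% of all genes and 42.9% of those tested. The CHR element of late cell cycle genes (TTTGAA or TTCGAA) was found in 5 (17.2%), below the 21.7% of all genes and close to the 16.5% of those tested. None of the letters searched for one motif is contained in those of another, and a match is a description of the sequence only.

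The following stretches lie upstream of the start and outside exons annotated in GENCODE M21, read 5′ to 3′ on the gene's strand. Capitals mark the E2F site or the CCAAT box on either strand.
Brca1, chr11:101551956-101552148, minus strand: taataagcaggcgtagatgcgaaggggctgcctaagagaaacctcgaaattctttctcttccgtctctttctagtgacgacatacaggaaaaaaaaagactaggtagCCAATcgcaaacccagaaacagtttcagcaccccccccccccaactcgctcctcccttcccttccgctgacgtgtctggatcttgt
Brca2, chr5:150522371-150522620, plus strand: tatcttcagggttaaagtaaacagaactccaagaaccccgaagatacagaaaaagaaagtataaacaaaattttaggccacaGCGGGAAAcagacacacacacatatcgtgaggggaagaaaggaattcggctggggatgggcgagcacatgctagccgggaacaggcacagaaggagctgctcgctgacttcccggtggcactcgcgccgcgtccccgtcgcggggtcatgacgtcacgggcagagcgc
Topbp1, chr9:103305083-103305214, plus strand: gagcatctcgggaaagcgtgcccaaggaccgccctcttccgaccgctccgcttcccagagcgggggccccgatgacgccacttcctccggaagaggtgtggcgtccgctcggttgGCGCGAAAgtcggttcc
Bard1, chr1:71103147-71103222, minus strand: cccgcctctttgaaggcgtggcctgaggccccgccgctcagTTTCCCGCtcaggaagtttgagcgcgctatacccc
Chek2, chr5:110839778-110839978, plus strand: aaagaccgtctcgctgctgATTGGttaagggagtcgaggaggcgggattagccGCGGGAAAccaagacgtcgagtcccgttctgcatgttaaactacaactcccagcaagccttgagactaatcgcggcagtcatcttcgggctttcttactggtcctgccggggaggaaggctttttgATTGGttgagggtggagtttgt
Brca2 and Topbp1 have an E2F site upstream and were called, and Bard1 and Chek2 have one and were not. Brca1 has a CCAAT box and no E2F site in this window and was called. In Msh6 and Rmi1 the E2F site lay after the start.

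Of the 8 Fanconi genes, 7 were below 0, with a median of -0.16, and none passed in edgeR with the block. Brip1, also known as FANCJ, encodes a helicase that binds BRCA1. It was at 21.0, 20.7, 15.4 and 13.4 CPM in HG replicates 1 to 4 and 14.1, 15.4, 10.5 and 11.4 CPM in LG. All 4 pairs were lower in LG, and its log2 fold change of -0.44 (SE 0.0828) just missed the threshold (edgeR adjusted p = 0.0520). Fancm, the translocase that brings the core complex to the lesion, was at 38.0, 32.5, 27.4 and 28.7 CPM in HG and 27.1, 28.0, 22.0 and 24.0 CPM in LG. It was also lower in 4 of 4 pairs, at -0.32 (edgeR adjusted p = 0.0815), and exons of Gm47869 and Gm47870 on the opposite strand overlap it.

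Fancd2 and Fanci form the clamp that the core complex ubiquitinates. Fancd2 was at 35.7, 35.8, 34.4 and 36.7 CPM in HG and 30.9, 34.7, 31.3 and 30.8 CPM in LG, at -0.16, and Fanci was at -0.13. The core complex genes Fanca, Fancb and Fancc were at -0.15, -0.22 and -0.06. Fancl, the ligase of the core complex, was above 0 at 0.05 (SE 0.0994, edgeR adjusted p = 0.864), with 6.53, 7.29, 6.25 and 5.29 CPM in HG and 7.07, 6.61, 6.92 and 5.62 CPM in LG. Its HG and LG ranges overlapped widely, and exons of Vrk2 on the opposite strand overlap it.

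All 5 end processing genes were below 0 and lower in LG in 4 of 4 pairs, and 2 were called. Rad50 encodes the coiled-coil ATPase of the MRE11 complex, which holds broken ends. It was at 41.3, 26.1, 24.1 and 20.1 CPM in HG replicates 1 to 4 and at 26.4, 19.0, 17.8 and 15.2 CPM in LG. HG replicate 1 stood above the other HG libraries, and every pair was lower in LG. Rad50 fell by 0.49 (SE 0.0712, edgeR adjusted p = 0.0346).

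Exo1, a nuclease that extends the trimmed ends, was at 44.9, 41.8, 31.2 and 30.7 CPM in HG and 33.7, 28.9, 25.9 and 24.1 CPM in LG. It fell by 0.39 (SE 0.0674, edgeR adjusted p = 0.0418), with the groups overlapping only through numbers 3 and 4 of HG and number 1 of LG. Rbbp8, the CtIP cofactor of the MRE11 complex, was at -0.32 (edgeR adjusted p = 0.0804). The remaining subunits did not pass: Nbn was at -0.28 and Mre11a at -0.16. Nbn was at 31.8, 21.6, 16.6 and 14.8 CPM in HG and 23.6, 18.7, 13.1 and 13.6 CPM in LG.

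Among the 6 checkpoint genes, 5 were below 0 and 1 was called. Topbp1, the activator of the ATR kinase, was at 156, 148, 116 and 122 CPM in HG and 128, 115, 94.0 and 102 CPM in LG. It fell by 0.30 (SE 0.0539, edgeR adjusted p = 0.0476), from 135 ± 19.8 to 110 ± 14.9 CPM (SD, n = 4), the smallest change among the called genes.

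The kinase genes did not pass. Atm, which responds to breaks, was at 71.0, 69.6, 60.5 and 53.9 CPM in HG and 52.2, 62.8, 46.8 and 44.8 CPM in LG (log2 fold change -0.31, edgeR adjusted p = 0.0733). Chek1, the kinase that ATR activates, was at -0.46 with a larger SE of 0.120 (edgeR adjusted p = 0.139). Its pairs differed: HG against LG was 28.4 and 16.5 CPM in pair 1, 24.5 and 20.2 CPM in pair 2, 18.6 and 10.9 CPM in pair 3, and 16.9 and 16.4 CPM in pair 4. Chek2, the kinase that ATM activates, was at -0.15.

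Atr and its partner gene Atrip had small estimates. Atr was at 31.7, 32.6, 24.6 and 22.6 CPM in HG and 23.5, 30.2, 20.2 and 23.8 CPM in LG, at -0.19 and lower in 3 pairs. Exons of Gm24004 on the same strand and of 1700065D16Rik and Gm16794 on the opposite strand overlap Atr. Atrip was at 19.7, 23.4, 22.7 and 21.3 CPM in HG and 21.8, 20.6, 21.6 and 24.6 CPM in LG, at 0.03 (edgeR adjusted p = 0.917). The HG and LG libraries of Atrip were interleaved. Its sign turned to negative with GC and length offsets, without replicate 1 and without replicate 4, and it shares exons with Trex1 on the same strand.

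**Figure D2:**
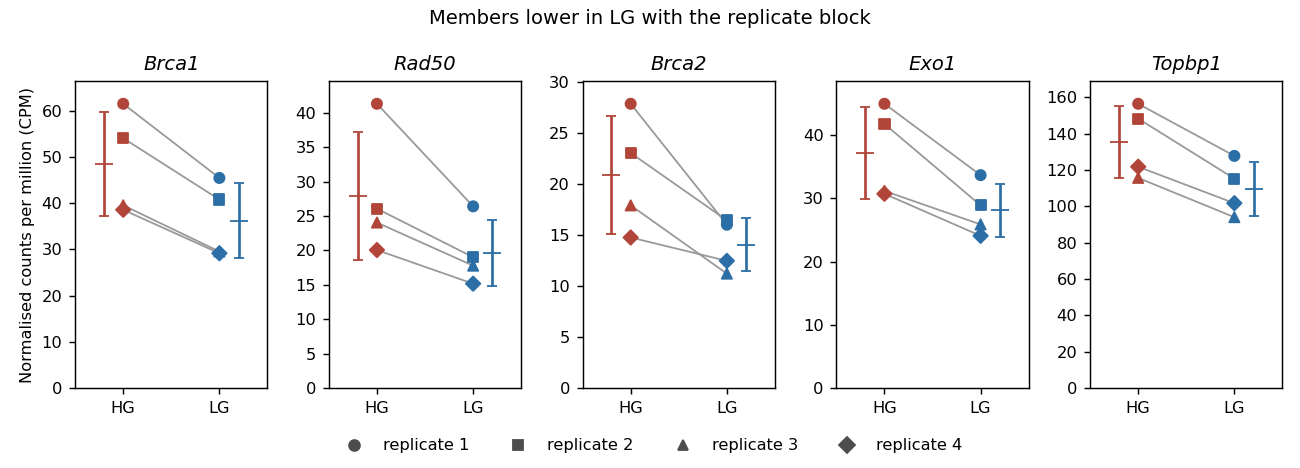
Level in CPM in each library for the 5 called genes, with lines joining the HG and LG libraries of a number. Bars are mean and SD over 4 libraries. Every line slopes down from HG to LG, and numbers 1 and 2 lie above numbers 3 and 4 in HG.

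Junction processing held 4 genes and none passed. Blm, the helicase that dissolves joined chromatids with Rmi1, was at 41.3, 34.7, 27.3 and 26.4 CPM in HG and 30.8, 26.2, 22.4 and 22.9 CPM in LG (log2 fold change -0.33, edgeR adjusted p = 0.0647). Rmi1 was at -0.15. Eme1 and Mus81 encode the subunits of 1 nuclease and lay on opposite sides of 0. Exons on the opposite strand overlap both genes, those of Lrrc59 and Mrpl27 for Eme1 and of Efemp2 for Mus81.

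Eme1 was at 14.9, 12.8, 13.3 and 14.2 CPM in HG and 13.2, 11.6, 10.7 and 10.0 CPM in LG, at -0.28 (SE 0.0863, edgeR adjusted p = 0.198) and lower in 4 of 4 pairs. Mus81 was at 21.7, 26.4, 26.4 and 25.9 CPM in HG and 25.5, 26.7, 28.6 and 26.2 CPM in LG, at 0.09 (SE 0.0689, edgeR adjusted p = 0.581) and lower in 0 of 4 pairs. The difference between the subunits was not tested. The low HG value of Mus81 was replicate 1, the HG library in which most of the other 35 genes were highest.

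The 4 genes of other repair pathways were all lower in LG in 4 of 4 pairs and none passed. Polq, the polymerase of theta end joining, was at 33.2, 28.2, 20.7 and 21.2 CPM in HG and 18.4, 23.7, 12.8 and 19.4 CPM in LG (log2 fold change -0.48, SE 0.114, edgeR adjusted p = 0.111). Ung, which removes uracil from DNA, was at 17.0, 16.9, 11.2 and 12.6 CPM in HG and 14.2, 11.8, 8.73 and 10.7 CPM in LG (log2 fold change -0.35, edgeR adjusted p = 0.109). Polq differed more between pairs than Ung. Msh6, the mismatch sensor, was at 104, 103, 76.9 and 84.0 CPM in HG and 83.6, 85.2, 71.5 and 69.8 CPM in LG, at -0.24 (edgeR adjusted p = 0.115), and Neil3, a glycosylase that also opens crosslinks, was at -0.30.

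The levels of the 36 genes per length spanned from 0.837 to 19.5 CPM per kb of merged exons, averaged over the 8 libraries. On this length Msh6 was highest, at 21.2 ± 3.13 in HG and 17.8 ± 1.83 in LG (SD, n = 4), followed by Topbp1 at 12.1 ± 1.77 and 9.77 ± 1.33 and Nbn at 8.37 ± 3.02 and 6.81 ± 1.94. In HG the values of Topbp1 and Nbn overlapped within 1 SD. The lowest were Brca2 at 1.53 ± 0.423 in HG and 1.03 ± 0.190 in LG, Atr at 1.18 ± 0.212 and 1.03 ± 0.176, and Palb2 at 0.898 ± 0.154 and 0.775 ± 0.178. Brca2 and Atr in LG do not differ beyond their spread. The order depends on the length used: per kb of the longest transcript, a choice made after seeing the data, Topbp1 (23.5 CPM per kb) stood above Msh6 (19.9), Nbn came at rank 6 and Atr (3.23) at rank 27, while Brca2 (1.63) and Palb2 (1.64) stayed lowest. The called genes Topbp1 and Brca2 were thus near opposite ends on both lengths. Over the 36 genes the rank correlation of the level per merged exon length with the log2 fold change was 0.096 (a description, with the same libraries behind each gene).

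The difference between LG and HG varied by pair. The median over the 36 genes was -0.38 in pair 1, -0.21 in pair 2, -0.28 in pair 3 and -0.17 in pair 4 (log2 CPM, prior count 2), a mean of -0.26 ± 0.095 (SD, n = 4 pairs), against medians from -0.009 to 0.006 over all genes in the same pairs. The widest steps in pair 1 were those of Polq (-0.85), Brca2 (-0.80) and Chek1 (-0.78), and in pair 4 the same genes stood at -0.13, -0.24 and -0.04. Brca1 in contrast had nearly equal steps in all pairs, from -0.44 to -0.40. The median level of the 36 genes also followed the preparation: it was 0.32 and 0.26 above each gene's mean in HG replicates 1 and 2 and 0.04 and 0.05 below it in HG replicates 3 and 4. In LG it was -0.04, 0.04, -0.35 and -0.20 in replicates 1 to 4. LG of the first preparation thus lay near HG of the other preparations, and no gene of the 36 had every LG library below every HG library, against 1.82% of all genes.

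**Figure D3:**
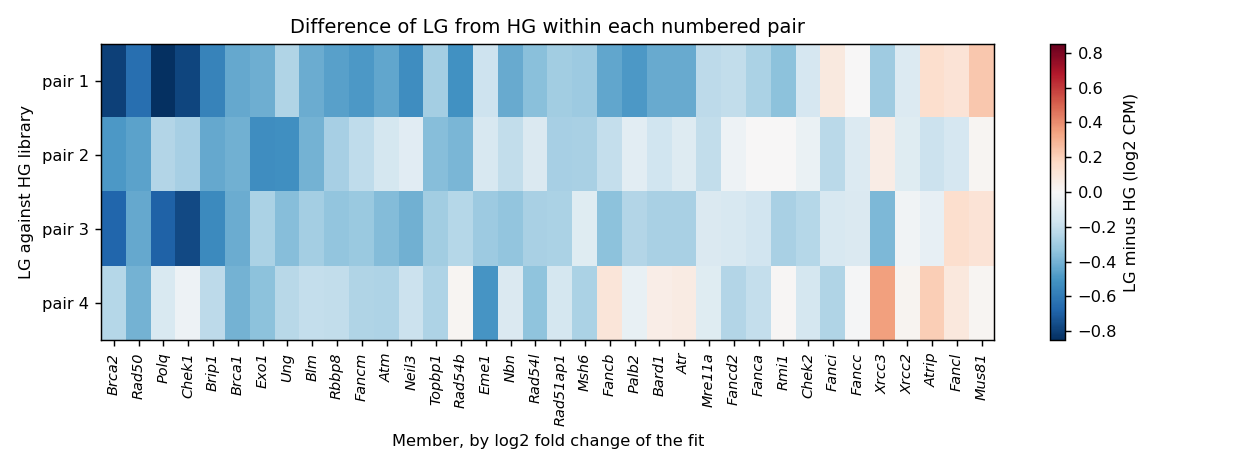
Difference between the LG and the HG library of each numbered pair (log2 CPM) for the 36 genes, ordered from the most negative log2 fold change. Blue is lower in LG and red is higher. Blue fills most cells in the 4 pairs, with red cells mainly at the right end (Atrip, Fancl, Mus81) and in pair 4.

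The calls rested on few pairs. None of the 36 was called without replicate 1 or without replicate 2, 1 (Rad50) was called without replicate 3, and 8 without replicate 4. The calls over all genes, lower or higher, also changed, from 0 without replicate 2 to 148 without replicate 4. With the counts of numbers 1 and 2 summed, which leaves 3 pairs, the 5 genes had edgeR adjusted p from 0.0671 to 0.121, and a block on the preparation code gave 0.130 to 0.382. Their log2 fold changes stayed between -0.65 and -0.27 over all 15 fits. DESeq2 with the block called 15 of the 36 as lower, against 1.61% of all genes, and these included the same 5.

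A further list held 64 genes of the same pathways that are not among the 36, all of which were tested. Of these 45 were below 0 and 19 above, with a median log2 fold change of -0.11. Against 0.307% of all genes, 1 of the 64 was called lower. That gene was Clspn, the adaptor through which ATR activates CHEK1, at 71.0, 61.6, 48.2 and 49.2 CPM in HG and 45.8, 46.1, 33.5 and 37.2 CPM in LG. Clspn fell by 0.50 (SE 0.0633, edgeR adjusted p = 0.0260) and was lower in 4 of 4 pairs. Rif1, which shields ends from trimming, was at -0.42 (edgeR adjusted p = 0.0608). Wee1, Fignl1 and Usp1 were at -0.32, -0.29 and -0.27 and did not pass. Furthest above 0 was the Fanconi gene Mad2l2, at 0.29 (edgeR adjusted p = 0.0801) and lower in 0 of 4 pairs. Mad2l2 was named after its value was seen.

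By role, the 10 further checkpoint genes had a median of -0.20 and the 17 further Fanconi genes one of -0.00011, with 9 below 0. The Fanconi genes as a whole were thus closer to 0 than the other roles in both lists, a difference that was not tested. With GC and length offsets added to the block, 5 of the 64 were called lower, against 0.741% of all genes.

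Other DNA repair lists lay nearer to the median of all genes. Nucleotide excision repair had 7 of 18 genes below 0 (median 0.02), base excision repair 9 of 16 (-0.0015) and the end joining list 7 of 10 (-0.04). Mismatch repair without Msh6 had 5 of 6 below 0 (-0.12). None of their genes was called in edgeR with the block, against 0.307% of all genes called lower and 0.111% called higher. At these shares, lists this short would hold few calls or none. Ercc5 (-0.21, edgeR adjusted p = 0.160), Mbd4 (-0.24, 0.250) and Paxx (0.22, 0.279) had the smallest p of their lists. The difference between these lists and the 36 genes was not tested.

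Lists of genes used in dividing cells had medians like that of the repair genes. Of their 50 genes 6 were called lower, against 0.307% of all genes. All 30 DNA replication genes and all 20 mitosis genes were below 0, with medians of -0.22 and -0.27, close to the -0.26 of the 36 repair genes. Called among them were Pola1 (-0.46, edgeR adjusted p = 0.0346) and Cdc6 (-0.38, 0.0465) of replication and Mki67, Knl1, Cenpe and Kif20b of mitosis, Kif20b being named after its value was seen. The Ki-67 gene Mki67 was at 901 CPM in HG replicate 1, against 334 to 441 CPM in the other HG libraries. The summed CPM of the 36 genes was also highest there, at 1200 CPM against 903 to 1115 CPM. Not every mitosis gene was highest in that library. Plk1 was at 96.5 CPM there, against 105 to 124 CPM in the other HG libraries, and Aurka at 67.8 against 70.1 to 85.5 CPM. The log2 fold changes of the mitosis genes ran from -0.80 to -0.01. The part of cell division in the repair gene differences was not tested.

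**Figure D4:**
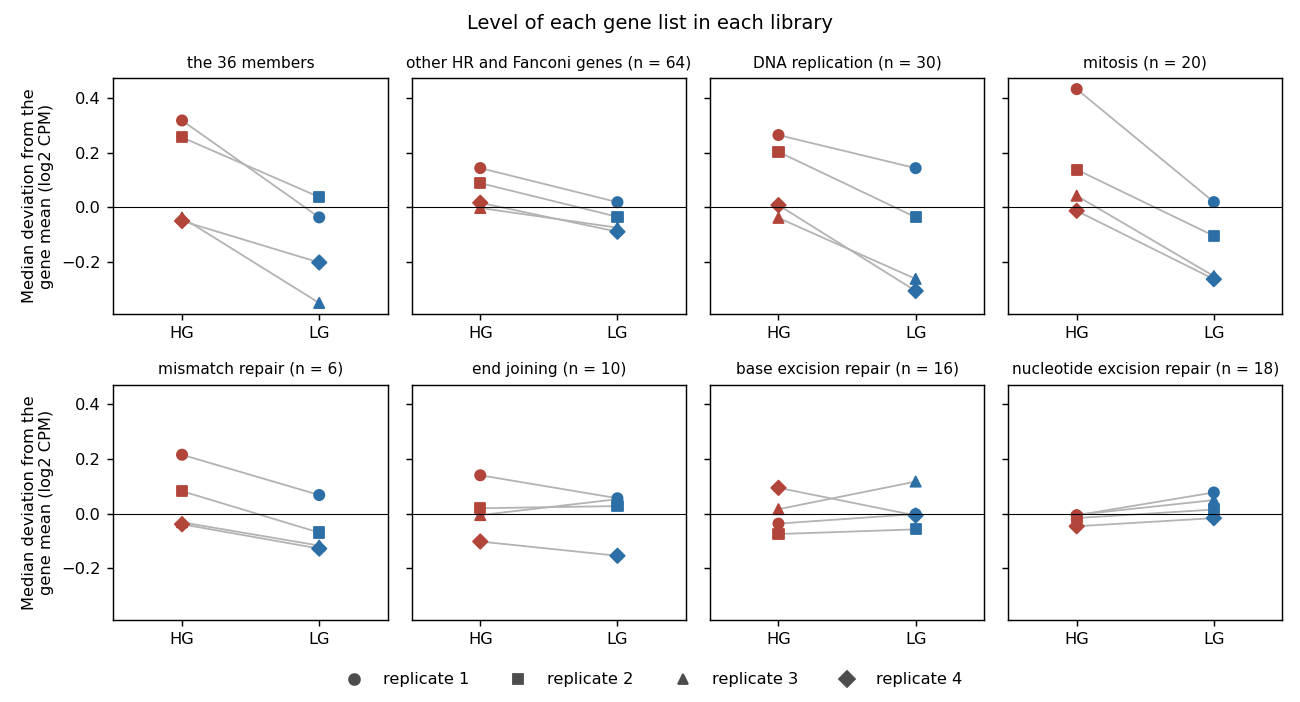
Median deviation of each list's genes from their mean over the 8 libraries (log2 CPM), with a point for each library and lines joining the HG and LG libraries of a number. The lines of the 36 genes, the 64 further genes, DNA replication, mitosis and mismatch repair fall in all 4 pairs. Their points run from as high as 0.43 (mitosis, HG replicate 1) to as low as -0.35 (the 36 genes, LG replicate 3). Those of nucleotide excision repair stay within 0.08 of 0.

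GC content and transcript length moved with the fold changes. The longest transcripts of the 36 genes had a median GC content of 46.0% and a median length of 4368 bases, against 49.3% and 2902.5 bases over all genes tested. Across all genes the rank correlation of the log2 fold change with GC content was 0.36 with the block and -0.01 with GC and length offsets as well, and across the 36 genes it was 0.39 and 0.11 (descriptions, since genes share libraries). With transcript length it was -0.50 across the 36 genes and -0.36 with the offsets, against -0.05 and -0.04 across all genes. Genes in the GC range of the 5 called genes, 42.4 to 46.6%, had a median log2 fold change of -0.05 over 3761 genes. With the offsets the median of the 36 went from -0.26 to -0.22, and 7 were called lower, against 0.741% of all genes. The 5 genes called without the offsets were among these 7, and Brip1 (-0.34, edgeR adjusted p = 0.0416) and Blm (-0.28, 0.0456) joined them. The estimates that moved furthest toward 0 were those of Brca2 (from -0.55 to -0.42), Atr (from -0.19 to -0.06) and Atm (from -0.31 to -0.18).

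**Figure D5:**
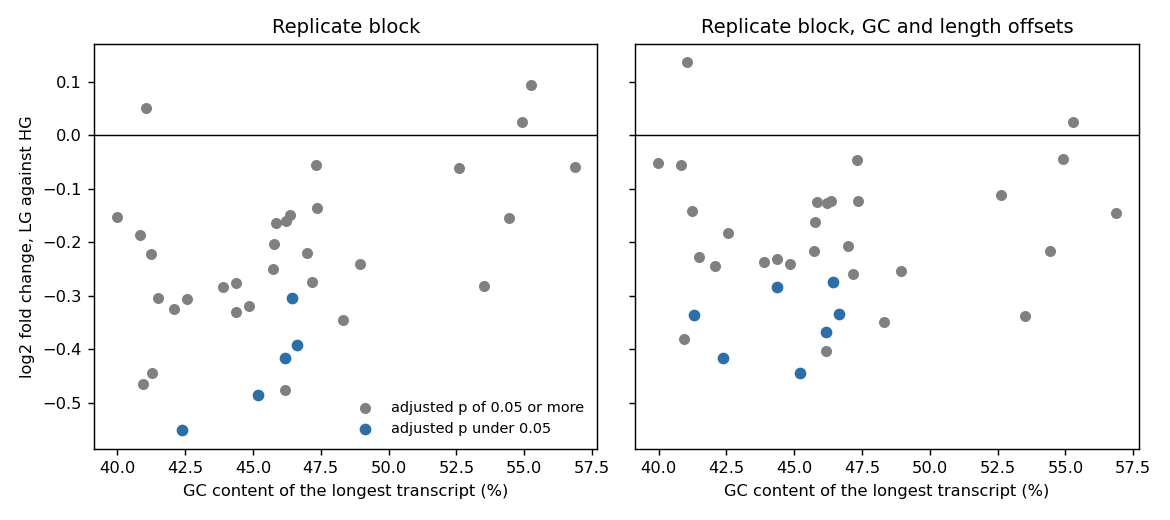
Log2 fold change of each of the 36 genes against the GC content of its longest transcript, with the replicate block alone (left) and with GC and length offsets as well (right). Blue points have an adjusted p under 0.05, 5 on the left and 7 on the right.

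Markers of the cells themselves and of other cell types were read beside these values. The 8 progenitor markers summed to between 8762 and 11948 CPM in HG and between 9116 and 12112 CPM in LG. Of these 8 markers, 3 were below 0, 5 were above 0 and none was called. Gpr17 had the smallest p, at 0.38 (edgeR adjusted p = 0.0523), and Sox10 was at 0.22 (0.189), each lower in 0 of 4 pairs. Ptprz1 and the antibody's target Pdgfra were at -0.17 and -0.09, each lower in 4 of 4 pairs. Astrocyte markers summed to 767 to 1776 CPM in HG and 662 to 1922 CPM in LG, 5 of 8 were above 0 and none was called. The astrocyte sum was higher in numbers 1 and 2 than in numbers 3 and 4 of each group. Within each group the median level of the repair genes was also higher there. In LG replicates 1 and 2 that level was -0.04 and 0.04, near the -0.04 and -0.05 of HG replicates 3 and 4. Neuron markers summed to 1083 to 1339 CPM in HG and 1020 to 1138 CPM in LG, with 5 of 7 tested below 0. Microglia and endothelial markers summed to at most 3.48 and 7.41 CPM, with Cx3cr1, Itgam, Cldn5 and Cdh5 at 0 counts in all libraries. Of 7 tested markers of mature oligodendrocytes, 5 were above 0, and Myrf was called higher at 0.60 (edgeR adjusted p = 0.00871). The part of other cell types in the repair gene differences was not tested.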

How the data were processed

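Raw counts per Ensembl gene were deposited by the authors as 1 table for the 8 libraries. Per the submitters' processing notes, the tools were CASAVA 1.8.2, STAR, featureCounts and DESeq2 and the build mm10. Which annotation, strand setting and multi-mapping rule they used is not given in the sources used here. Exons of a gene on the opposite strand overlap 18 of the 36 genes, so their counts may hold other reads. The total counts exceed the depth stated in the labels' protocols. IDs were matched to GENCODE M21 (GRCm38), which gave 52073 symbols.

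Counts were analysed with edgeR 4.0.16 in R 4.3.3 (filterByExpr, TMM, robust quasi-likelihood test), and an SE is the log2 fold change divided by the square root of F. CPM use TMM factors. Same-numbered HG and LG libraries share a preparation code, and their deviations from the group means correlated at 0.448 to 0.625 across genes, against 0.419 at most for other numbers. The numbers therefore pair the libraries, and the rule for these genes asked for this pairing. Libraries of a group differed beyond counting noise (chi-square per degree of freedom of at least 17.2). Total counts did not differ between groups beyond their spread (two-sided exact permutation test, p = 0.543, n = 4). Nothing beyond the shared code says that the cultures were separate. With the block, p-values measure how the LG to HG difference varies between these 4 pairs, which came from 3 preparations. The spread that the members of a pair share is taken out by the block.

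The LG against HG test was run on counts simulated for 18905 genes from blocked means. It recovered 82% of 100 well-counted genes changed by 1.4-fold and 99% of 100 changed by 2-fold, and 9.05% of its calls were false. The alternatives used DESeq2 1.42.0, limma 3.58.1 and mgcv 1.9.3, which fitted the GC and length offsets (known for 97.5% of tested genes). The genes, lists and the fit with the block were chosen with earlier results of these data known. Values in all libraries are given for called genes, the 2 smallest p of each role, the 3 highest and lowest levels per length, genes above 0, and for Chek1 and Fancd2 in addition, chosen after their values were seen. A result that the naming rule would give for the further list is not reported here.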

Additional observations from a re-analysis of the deposited data

Results flagged for a closer look

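Within groups of 4 libraries, 3 values stood apart by Dixon's criterion among 76 groups checked, against 3.8 that chance gives at 1 in 20. Rad54b was lowest in LG replicate 3 at 2.73 log2 CPM, with the other LG libraries at 3.05 to 3.09. Fancd2 was highest in LG replicate 2 at 5.12, with the others at 4.95 to 4.97. Mus81 was lowest in HG replicate 1 at 4.44, with the others at 4.69 to 4.72.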

How the results depend on the processing

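The median log2 fold change of the 36 genes stayed between -0.29 and -0.22 over the 15 fits, but the calls depended on the pairing. With no replicate block, 0 genes of the table, 0 of the 36 and 0 of the 64 further genes were called by edgeR, and 745 genes had an unadjusted p under 0.05. With the block, edgeR called 79 genes, 5 of the 36 and 1 of the 64. DESeq2 called 474, 15 and 8, and edgeR with no filter 739, 15 and 9. The preparation block gave 1, 0 and 0. Sums per preparation gave 17 genes and 0 of the 36. GC and length offsets gave 183 genes and 5 of the 64. Leaving out 1 pair gave from 0 (without replicate 2) to 148 genes (without replicate 4), from 0 (without replicate 1 or 2) to 8 of the 36, and from 0 to 5 of the 64. Among single genes, the sign turned for Atrip with the offsets (-0.043), without replicate 1 (-0.013) and without replicate 4 (-0.037), and for Xrcc3 without replicate 1 (0.020) and without replicate 3 (0.047). With 1 pair left out the highest value for Atrip was 0.095 and the lowest for Xrcc3 was -0.21. These 2 genes were not called in any fit, and the cause was not tested.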
